A study of Mus musculus with 2 samples.

Results

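The clustered protocadherins are a family of cell-surface adhesion proteins whose genes lie side by side on mouse chromosome 18 in the alpha, beta and gamma clusters. Members were taken as the protein-coding genes of the mm9 GENCODE annotation on that chromosome named as alpha, beta or gamma protocadherins. Their CpGs were those lying from 1 kb upstream to 3 kb downstream of the 5' end of the gene and covered by at least 5 reads in both libraries (shared CpGs). The rule gave 24 of 22380 protein-coding genes, 2 in the alpha, 21 in the beta and 1 in the gamma cluster. Their windows held 412 of 2654195 shared CpGs, with 80 in the alpha, 272 in the beta and 60 in the gamma cluster. The cytosine on each strand was counted as a CpG of its own, and with strands joined the 412 CpGs were 228 sites.

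In alpha and gamma, each array of variable first exons is spliced to constant exons shared by the whole cluster, whereas each beta gene is a single exon. Each variable exon has its own promoter, most of which carry a conserved sequence element, and single neurons switch on only a few of them, so that neighbouring cells differ in the adhesion molecules they display. Promoter choice in neurons involves DNA methylation of the variable exons, the insulator protein CTCF and cohesin, and in most other tissues the clusters are largely silent. UHRF1 binds hemi-methylated DNA and brings the maintenance methyltransferase DNMT1 to newly replicated DNA, and its tandem Tudor domain binds histone H3 methylated at lysine 9.

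DNA methylation was measured by reduced representation bisulfite sequencing (RRBS), in which fragments cut at CCGG sites are treated with bisulfite and sequenced, so that a methylated cytosine is still read as C. One library was made from liver of homozygous Uhrf1 YP187/188AA knock-in males (KI), whose point mutations lie in the tandem Tudor domain in all tissues, and 1 library from wild-type males (WT). The mice were 3 months old and of strain C57BL/6 in the labels, and DNA of 3 mice was pooled for each library. The label of the KI library gives its genotype as knock out, and the library was taken as KI from its title.

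The KI library listed 6452685 cytosines of CpGs with a summed coverage of 173109895 reads, and the WT library listed 7231934 with 192144002 reads. At shared CpGs the median depth was 37 reads in both libraries, and over the member windows it was 42 reads in KI and 55 reads in WT. With 1 pooled library per genotype there was no replicate spread. Every interval and p-value therefore covers the counting of reads in these 2 libraries only and is too narrow for a difference between genotypes, since reads span several CpGs and can be PCR copies. The WT and KI mice were littermate pairs, but pooling by genotype left no pairs to compare.

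Liver holds several cell types. Of 12 hepatocyte genes set down as markers, 4 had promoters with at least 5 shared CpGs, so the tissue label was hardly tested by these data. Their median level was 28.6% in KI and 41.6% in WT, with Apob at 31.1% in KI and 43.7% in WT, Hnf4a at 45.2% in KI and 56.7% in WT and Fgb at 26.0% in KI and 39.6% in WT, while Tat, the fourth, stood at 0% in KI and 2.78% in WT. The promoters of 9 measured genes of other cells had a median of 42.0% in KI and 41.9% in WT and ranged from 0.595% to 83.3% in KI and from 0% to 76.7% in WT. They went both ways, with Cd3e at 48.5% in KI and 65.3% in WT and Cdh5 at 83.3% in KI and 76.7% in WT. The hepatocyte promoters and some of those of other cells were thus lower in KI, as the members below were. The part of cell makeup in the members' change was not tested.

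The annotation joins most alpha genes into 1 gene model named Pcdha11 (18:37089939-37347311) beside Pcdha3, and all gamma genes into 1 model named Pcdhgc5 (18:37833989-38001527). The 5' end of each model is the first exon of its array, so the window named Pcdhgc5 does not hold that gene's own variable exon. Of the 24 members, 14 had at least 5 shared CpGs and could be tested, 2 (Pcdhb12 and Pcdhb16) had fewer, and 8 had none. The 8 unmeasured members were Pcdhb4, Pcdhb6, Pcdhb8, Pcdhb9, Pcdhb11, Pcdhb13, Pcdhb18 and Pcdhb19, where both libraries listed CpGs but no CpG reached 5 reads in both. Of the 412 CpGs, 408 lay in member exons, 4 upstream of a 5' end and 0 downstream outside an exon, so the values describe the coding first exons and not the promoters.

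The member windows were less methylated in the KI library. The mean over the 412 CpGs was 39.98% in KI and 48.90% in WT, a change of -8.92 percentage points (95% counting interval -10.1 to -7.74). The median CpG stood at 37.5% in KI and 50% in WT. KI stood below WT at 292 of the CpGs, above it at 110 and level with it at 10. Over all shared CpGs of the genome, KI stood below WT at 1217327, above it at 651790 and level with it at 785078. The same mean over all shared CpGs of the genome was 42.6% in KI and 45.6% in WT, a change of -2.99 points. The change of the members exceeded that of the rest of the genome by -5.93 points (-7.12 to -4.75). Windows of the other genes on chromosome 18, most of them unmethylated, averaged 6.40% in KI and 6.64% in WT. Relative to its own WT level, the mean changed by -18.2% over the members and by -6.55% over the genome.

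All 3 clusters were lower in KI, the gamma cluster by the least. The alpha cluster averaged 34.3% in KI and 42.8% in WT, a change of -8.57 points (-10.5 to -6.59). The beta cluster averaged 42.3% in KI and 52.4% in WT, a change of -10.1 points (-11.7 to -8.47). The gamma cluster averaged 37.2% in KI and 41.3% in WT, a change of -4.06 points (-6.27 to -1.85). Each of these changes passed a Cochran-Mantel-Haenszel test on the reads, stratified by CpG. The change in alpha differed from that in gamma by -4.51 points (-7.48 to -1.55) and the change in beta differed from that in gamma by -6.04 points (-8.78 to -3.29). Between alpha and beta the difference was 1.53 points with an interval of -1.04 to 4.09, which includes 0. It passed at 4.69 points over all distinct 5' ends of member transcripts and turned to -1.35 points, without passing, at 20 reads. The alpha cluster here is represented by 2 windows and the gamma cluster by 1. Single stretches between CCGG sites, described below, changed by -21.6 to -4.36 points in alpha, -30.1 to 0.258 in beta and -14.5 to 0.251 in gamma. The counting intervals leave out this spread, so they cannot show that the clusters as a whole differ. The difference between alpha and gamma was -2.94 points and no longer left out 0 when CpGs in recurring sequence were dropped, and that between beta and gamma was -2.30 points and no longer left out 0 at 20 reads in both libraries.

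**Figure D1:**
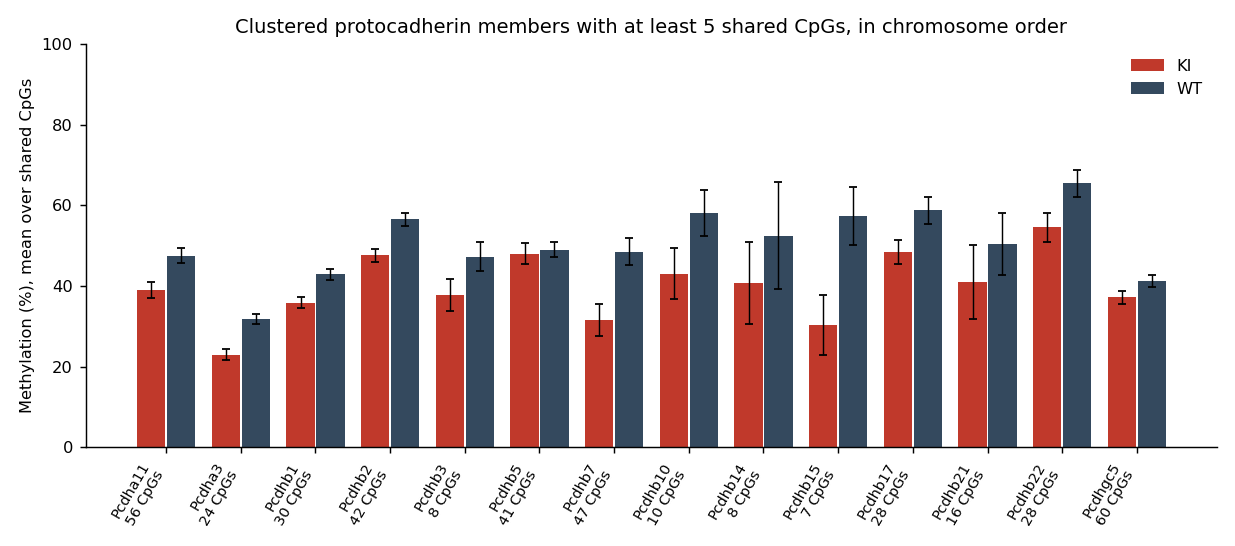
Mean methylation over the shared CpGs of each member window in KI (red, left) and WT (blue, right), in chromosome order, with 95% counting intervals of each mean. KI is below WT at each of the 14 members, with the widest gap at Pcdhb15 (30.3% in KI, 57.3% in WT) and almost none at Pcdhb5 (48.0% in KI, 49.0% in WT).

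Single members were tested beside the windows of all protein-coding genes, and a window was called where both the stratified test and Fisher's exact test on summed reads passed an adjusted p of 0.05 (Benjamini-Hochberg over 15042 windows) in the same direction. Of the 14 testable members, 10 were called lower in KI and 0 higher. Over all gene windows 10.4% were called lower and 1.49% higher. Since members had 31.9% to 65.5% methylation in WT, a closer background is the 2140 windows at 30% to under 70% in WT, of which 27.3% were called lower. The median change was -9.48 points over the members, -0.0995 over all gene windows and -3.08 over the 2126 other windows in that range. All 14 members had a negative change, beside 1675 of the 2126 other windows in that range. At 12 of the members the mean was lower on both DNA strands.

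**Figure D2:**
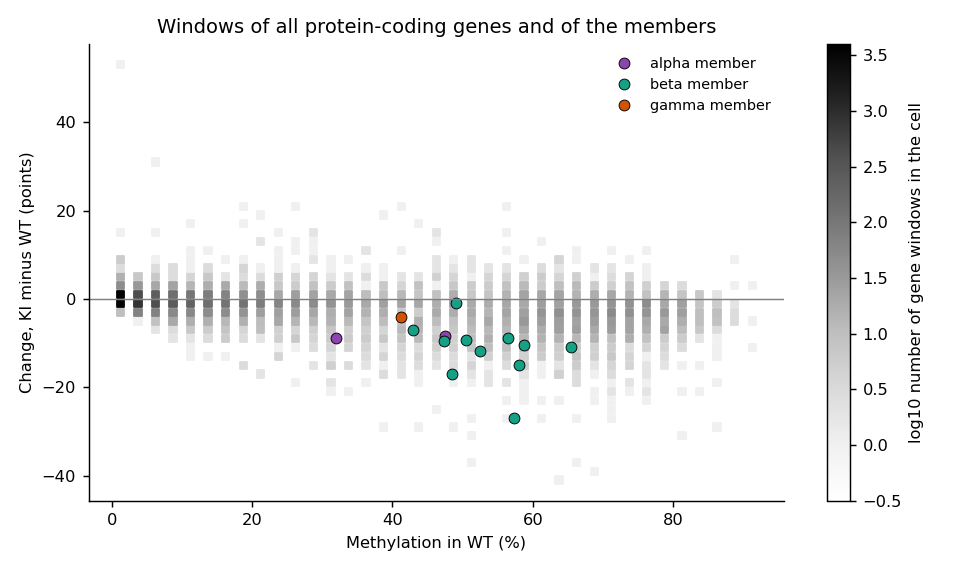
Change in methylation (KI minus WT, percentage points) against the WT level for the windows of 15042 protein-coding genes, drawn as grey cells shaded by the log10 number of windows, with the 14 members as coloured points. The members sit between 31.9% and 65.5% in WT with changes from -27.0 to -1.04 points. Of the 2126 other windows at 30% to under 70% in WT, 8 fell further than Pcdhb15, 900 further than Pcdhgc5 and 1469 further than Pcdhb5.

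In the alpha cluster, Pcdha11, here the first variable exon of the array, averaged 39.1% over 56 CpGs in KI and 47.5% in WT, a change of -8.44 points. It was called lower (adjusted p = 5.54e-14 by Fisher's exact test and 4.11e-10 by the stratified test). Pcdha3, the next annotated gene, averaged 23.0% over 24 CpGs in KI and 31.9% in WT, the lowest levels among the testable members in both libraries. Its change of -8.88 points rested on 159.5 reads per CpG in KI and 196 in WT (medians), and 23 of the 24 CpGs were lower in KI and 0 higher (adjusted p = 1.67e-17 by Fisher's exact test).

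The beta cluster held the largest changes. Pcdhb15 averaged 30.3% over 7 CpGs in KI and 57.3% in WT, a change of -27.0 points (-37.3 to -16.7) at 17 and 20 reads per CpG. No more than 11 of the 15042 gene windows had a larger fall. Pcdhb7 averaged 31.6% over 47 CpGs in KI and 48.5% in WT, a change of -16.9 points that shrank to -7.59 points when a minimum of 10 reads left 26 CpGs, still called lower. Pcdhb10 averaged 43.1% over 10 CpGs in KI and 58.1% in WT, and each of the 10 CpGs (5 sites on both strands) was lower in KI. Its call was narrow, with an adjusted p of 0.0498 by Fisher's exact test, and it was lost at a minimum of 10 reads, where the change was the same -15.0 points, and at 20 reads, where 5 CpGs gave -9.19 points. Pcdhb22, the last beta gene, was the most methylated member, with 54.6% in KI and 65.5% in WT over 28 CpGs.

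The first beta gene, Pcdhb1, which lies apart from the others, averaged 35.9% over 30 CpGs in KI and 42.9% in WT. Pcdhb2 had 47.7% over 42 CpGs in KI and 56.5% in WT, and Pcdhb17 had 48.5% over 28 CpGs in KI and 58.8% in WT. Pcdhb3 had 37.7% over 8 CpGs in KI and 47.3% in WT. These 4 members changed by -10.3 to -7.06 points and all were called lower.

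In the beta cluster, 3 testable members were not called. Pcdhb5 had the least change of them, with 48.0% in KI and 49.0% in WT over 41 CpGs, 19 lower and 21 higher in KI, and a change of -1.04 points whose interval ran from -4.24 to 2.16. Pcdhb14 averaged 40.8% in KI and 52.5% in WT, and Pcdhb21 averaged 41.1% in KI and 50.5% in WT. Both rested on few reads, with 9 and 5.5 reads per CpG in KI and 5 and 7.5 in WT, and intervals of -28.5 to 5.05 and -21.4 to 2.61 points. At this depth their changes of -11.7 and -9.39 points, within the range of the called members, could not be told from 0. The gamma window under Pcdhgc5 was also not called, because the test on summed reads gave an adjusted p of 0.0549 while the stratified test gave 4.17e-09. It was called at 20 reads, without CpGs in CCGG sites, in thinned reads and by the stratified test alone.

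At single CpGs the same direction held. Reads of each CpG were compared by a two-sided Fisher's exact test, and a call required a Benjamini-Hochberg value under 0.05 over all shared CpGs together with more than 25 points of difference. Of the 412 member CpGs, 15 were called lower in KI and 0 higher. Over the genome 1.09% were called lower and 0.0474% higher, against 3.64% lower in the member windows. A CpG at 25% or less in WT could not be called lower. Those under 20% in WT, a part of these, made up 16.7% of member CpGs and 45.1% over the genome. The shares called lower are thus not at matched WT levels. The 15 CpGs lay in 10 members, 332 to 2257 bp past the 5' end, and 12 of them were outside CCGG sites.

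The deepest of these called CpGs are given in reads, and each fell by more than 25 points because the call required it. At 1158 bp into the gamma window of Pcdhgc5, 63 of 235 reads were methylated in KI (26.8%) and 105 of 193 in WT (54.4%). At 1180 bp of the same window, 125 of 235 reads were methylated in KI (53.2%) and 161 of 192 in WT (83.9%). At 477 bp into Pcdhb7, 118 of 239 reads were methylated in KI (49.4%) and 241 of 323 in WT (74.6%). The gamma window was not called as a whole, and of its 60 CpGs 36 were lower and 24 higher in KI. The largest difference among the 15 called CpGs was at 2068 bp into Pcdhb15. There 2 of 17 reads were methylated in KI and 15 of 21 in WT. At Pcdhb12, which had too few CpGs for the window test, all 4 were lower in KI, and 1 of them was methylated in 37 of 99 reads in KI and 55 of 73 in WT.

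A feature of these genes that the rule did not use is their intermediate methylation. Of the member CpGs, 58.7% in KI and 56.6% in WT lay between 20% and 70%, whereas over the genome 14.9% did so in KI and 11.2% in WT. The member CpGs above 70% numbered 61 in KI and 110 in WT, and those under 20% numbered 109 in KI and 69 in WT. CpGs in CCGG sites are part of these counts. Among the 317 member CpGs outside CCGG sites, 20.8% in KI and 9.46% in WT were under 20%. Of these 317, 65.6% in KI and 64.4% in WT lay between 20% and 70%. Over the genome outside CCGG sites 16.3% did so in KI and 11.5% in WT.

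**Figure D3:**
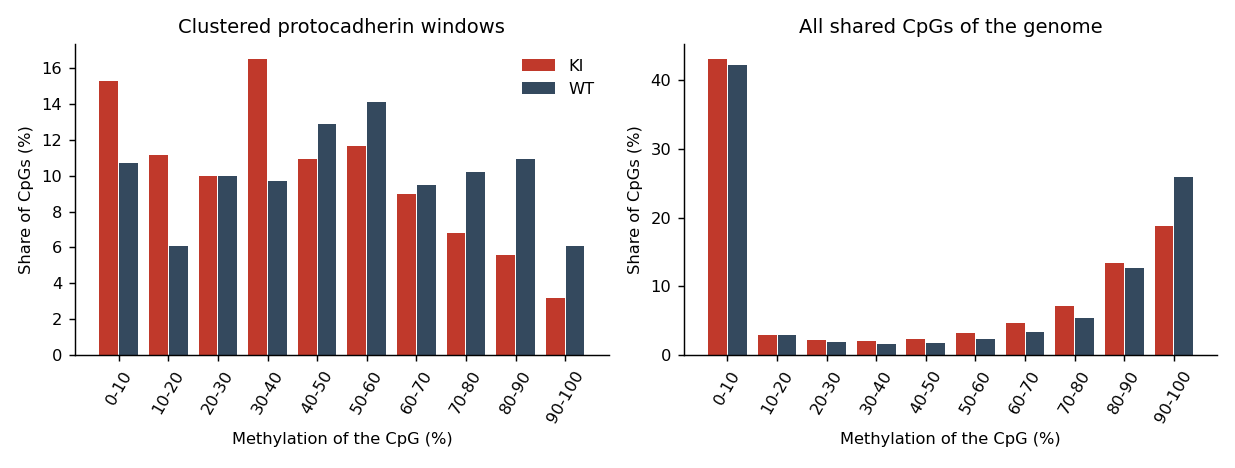
Share of CpGs (%) in steps of 10% methylation, for the 412 member CpGs (left panel) and all 2654195 shared CpGs (right panel), KI in red left of WT in blue, each panel with its own vertical scale. Member CpGs spread over the whole range, with 26.5% in KI and 16.7% in WT under 20%, while those of the genome pile up at both ends. These shares include CpGs in CCGG sites, without which 20.8% of member CpGs in KI and 9.46% in WT are under 20%.

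Neighbouring CpGs were read on the same fragments, so the members were also divided into the stretches between CCGG sites. Among 33 stretches with at least 2 CpGs outside CCGG, 31 were lower in KI and 2 higher, with a median change of -7.69 points and an SD of 8.87 across stretches. The counting interval lay below 0 in 20 of them and above 0 in none. Stretches of 1 member differed widely. In the gamma window the stretch centred 1133 bp past the 5' end averaged 48.2% in KI and 62.7% in WT, whereas the adjoining stretch at 947 bp stood at 94.3% in KI and 94.8% in WT and that at 748 bp at 50.1% in KI and 49.8% in WT. In Pcdha11 the stretch at 2259 bp averaged 21.2% in KI and 42.9% in WT, a change of -21.6 points, and the one at 2118 bp averaged 62.5% in KI and 66.8% in WT. The 2 largest changes were at Pcdhb15, with 34.4% in KI and 64.5% in WT, and at Pcdhb7, with 39.6% in KI and 69.3% in WT at only 6 and 9 reads per CpG.

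To reach the exons that the joined gene models hide, windows were placed at all 40 distinct 5' ends of member transcripts (10 in alpha, 21 in beta, 9 in gamma), a step added after the annotation had been seen. Variable exons without an annotated 5' end were not reached, so the arrays may not be covered in full. Of these, 28 had at least 5 shared CpGs, 17 were called lower in KI and 0 higher. Their 1291 CpGs averaged 24.92% in KI and 30.04% in WT, a change of -5.12 points, with -5.41 points in alpha and -2.92 points in gamma. Over windows at all protein-coding 5' ends, 8.83% were called lower and 1.36% higher. These windows were not matched to the first exons in WT level. In this larger table Pcdhb10 was not called (adjusted p = 0.0551 by Fisher's exact test).

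The last 2 first exons of alpha and the last 3 of gamma stand where the C-type genes lie, which many neurons express without the choice that governs the alternate exons. They were identified by this position and not by name. The 5 C-type first exons averaged 12.1% in KI and 13.1% in WT over 466 CpGs, a change of -1.02 points (-1.92 to -0.121). The 35 alternate first exons averaged 32.2% in KI and 39.6% in WT over 825 CpGs, a change of -7.44 points, and the change of the alternate exons differed from that of the C-type exons by -6.42 points (-7.66 to -5.18). The C-type change depended on the setting, at -3.71 points with CpGs weighted by reads, -2.06 points at 20 reads and -0.240 points within 1 kb of the 5' end. The difference between the exon types was then -3.62 points (-4.38 to -2.85), -4.19 points (-5.19 to -3.20) and -5.23 points (-6.84 to -3.62), in settings added for it after the data had been seen. C-type exons started from a lower level, and over the 28 measured first exons the change was more negative where WT methylation was higher (Pearson's r -0.67, Spearman's rho -0.77, with neighbouring exons in the same 2 libraries and WT on both axes). The part of the WT level in the difference between the exon types was not tested.

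The C-type exons differed among themselves. In alpha, the first of them (transcript Pcdha11-201) averaged 19.3% in KI and 23.6% in WT, a change of -4.34 points, and was called lower. The second (Pcdha11-202) averaged 10.8% in KI and 10.4% in WT, so that its mean over CpGs was 0.412 points higher in KI while both read-based tests called it lower, and its direction depended on how CpGs were weighted. The 3 gamma C-type exons averaged 10.2% in KI and 10.6% in WT, a change of -0.437 points whose interval (-1.74 to 0.869) includes 0, and none was called. Among them Pcdhgc5-208 had 2.0% in KI and 2.5% in WT, Pcdhgc5-205 had 0.777% in KI and 0.732% in WT, and the last, Pcdhgc5-203, had 39.7% in KI and 40.1% in WT over 61 CpGs. This last exon was about as methylated in WT as the gamma model's own window, and its interval ran from -2.49 to 1.68 points.

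Among alternate exons the alpha transcript Pcdha11-209 had the best measured large change. Its 12 CpGs, all 2197 to 2336 bp past the 5' end, averaged 35.0% in KI and 57.2% in WT at 157.5 and 168.5 reads per CpG (medians), a change of -22.2 points (-24.8 to -19.6). Of the 12 CpGs, 7 were called lower and all 7 lay within the stretch from 2225 to 2260 bp, with 24.8% to 41.6% in KI and 53.3% to 72.6% in WT. Some of these 7 were the cytosines of both strands at the same site. Pcdha11-205 changed by -23.9 points (-38.5 to -9.27) at 5 and 7 reads per CpG, with 6 CpGs lower and 5 higher in KI. It was called lower, but narrowly. Pcdha11-203, with 26.1% in KI and 25.6% in WT at 9 and 25 reads, was not called. In gamma, Pcdhgc5-206 averaged 17.3% in KI and 29.4% in WT over 64 CpGs. Its change was -12.1 points, against -4.25 to -0.869 points at the other 5 alternate gamma exons with an annotated 5' end.

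**Figure D4:**
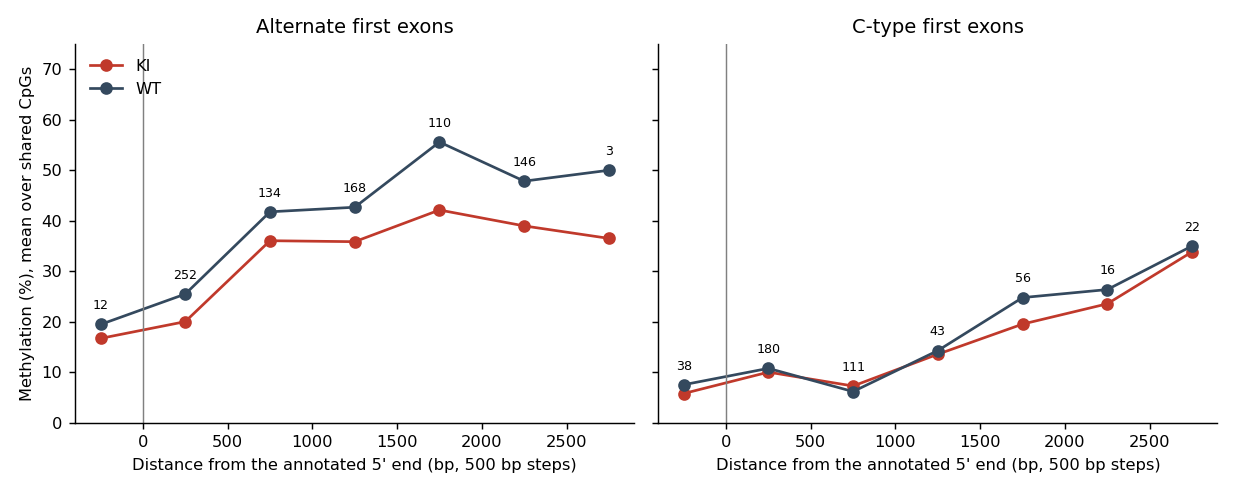
Mean methylation (%) of shared CpGs in 500 bp steps from the annotated 5' end, for alternate (left panel) and C-type first exons (right panel), KI in red and WT in blue, with the number of CpGs above each point. In alternate exons the gap at 1500 to 2000 bp is 42.1% in KI and 55.6% in WT over 110 CpGs, that at 2500 to 3000 bp rests on 3 CpGs, and in C-type exons the lines run close together below 15% for the first 1500 bp.

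Along the exons, methylation was lowest at the 5' end. Over the members, the first 500 bp averaged 26.2% in KI and 31.7% in WT, a change of -5.51 points over 107 CpGs. The stretch from 1500 to 2000 bp averaged 45.9% in KI and 60.5% in WT, a change of -14.7 points over 89 CpGs, all of them in beta genes. From 2000 to 2500 bp the mean was 40.2% in KI and 48.2% in WT, a change of -8.06 points. Each step was measured in a different set of members, at most 10 of them, so the profile mixes position with member.

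The 4 CpGs upstream of a member's 5' end, all at Pcdhb5, averaged 34.4% in KI and 36.3% in WT, a change of -1.88 points (-18.8 to 15.0). Over all distinct 5' ends, 50 upstream CpGs outside exons changed by -1.99 points, which did not pass the stratified test. In the 500 bp before the 5' end, 12 CpGs of alternate exons averaged 16.7% in KI and 19.5% in WT (interval of the change -11.4 to 5.86 points), and 38 CpGs of C-type exons averaged 5.79% in KI and 7.54% in WT (-3.56 to 0.0743 points). A change on the promoter side was therefore not detectable at this depth. Variable exon promoters are known for an element around the letters CGCT. Within 350 bp upstream of the annotated start codon, these letters stood on the gene strand in 35 of 37 first exons with such a codon (94.6%), against 48.1% of 21650 protein-coding genes. The CpG of a CGCT was a shared CpG at only 3 of the first exons, at levels of 0% to 18.7% in KI and 0% to 15.1% in WT, and none of them was an alpha alternate or beta exon.

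**Figure D5:**
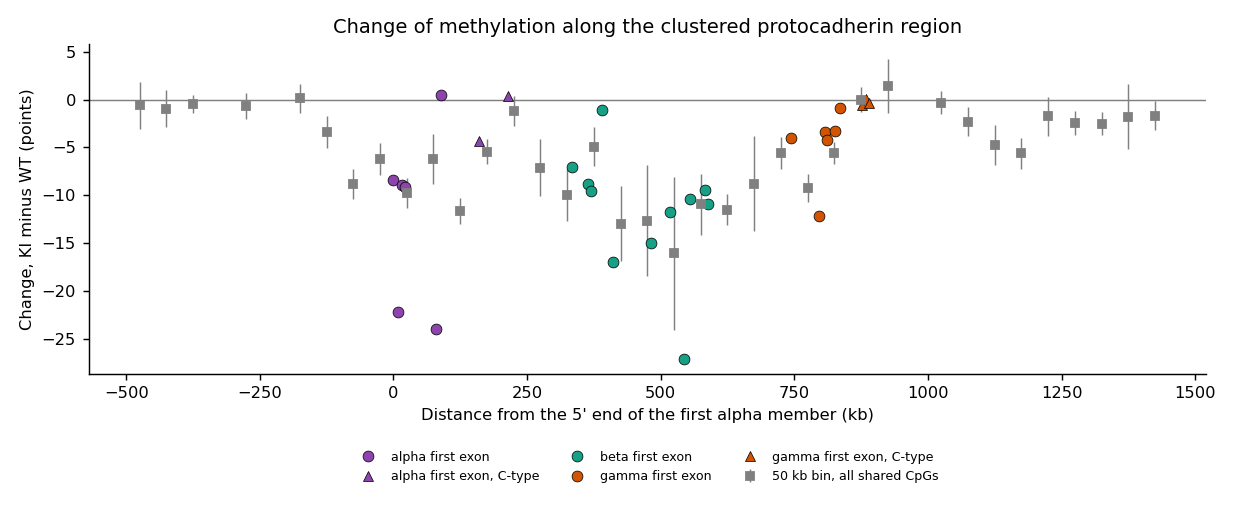
Change in methylation (KI minus WT, percentage points) against distance in kb from the 5' end of the first alpha member. Grey squares are 50 kb bins of all shared CpGs with 95% counting intervals and at least 20 CpGs, circles are alternate and triangles C-type first exons with at least 5 shared CpGs. Bins from -100 kb to 150 kb and from 250 kb to 800 kb lie at -4.92 points or lower, and the bins starting at 850 kb and 900 kb lie at -0.02 and 1.41 points.

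The lower methylation was not limited to the member windows. CpGs of the cluster span outside the member windows averaged 31.76% in KI and 37.96% in WT, a change of -6.20 points over 2099 CpGs. These 2099 CpGs include those of the other first exons, 278 in alpha and 601 in gamma. In bins of 50 kb, the 5 measured bins starting 500 to 200 kb before the first alpha member changed by -0.94 to 0.14 points, and the bin starting 100 kb before it changed by -8.81 points (69.0% in KI, 77.8% in WT). The deepest bin, starting at 500 kb in the beta cluster, averaged 31.3% in KI and 47.4% in WT over 22 CpGs. The bin starting at 200 kb, which holds the second alpha C-type exon, changed by -1.24 points (-2.81 to 0.334). The bin starting at 850 kb, which holds the gamma C-type exons, averaged 11.2% in KI and 11.2% in WT. Beyond the gamma cluster, the 9 measured bins starting at 1000 to 1400 kb changed by -5.62 to -0.324 points, with the bins at 1100 and 1150 kb lowest. On the other side, the bin starting 150 kb before the first alpha member changed by -3.36 points.

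Genes related by family or place were set beside all gene windows, of which 10.4% were called lower and 1.49% higher. The non-clustered protocadherins, which have ordinary single promoters, were mostly unmethylated, with a median of 1.89% in KI and 2.32% in WT over 12 measured genes. Of these, 2 were called lower (Pcdh7 by -1.02 points and Pcdh8 by -0.99 points) and 0 higher. Among 28 neighbours with a 5' end within 500 kb of the outermost members, 21 were measured, 3 were called lower and 1 higher, with a median change of -0.0713 points. Eif4ebp3, which codes for a binding partner of the translation factor eIF4E, was the 1 called higher, at 37.7% in KI and 28.9% in WT. The neighbours called lower were Gm6756 (53.4% in KI, 60.7% in WT), 3222401L13Rik (3.6% in KI, 7.0% in WT) and Tmco6 (9.81% in KI, 10.4% in WT). The counting interval of the Tmco6 change includes 0.

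Olfactory receptor genes, another clustered family expressed by choice in single neurons, were set beside the members. Of 1113 such genes only 74 were measured, 44 were called lower and 0 higher, with a median level of 55.8% in KI and 63.6% in WT and a median change of -7.30 points. Among the 47 of them at 30% to under 70% in WT, 27 were called lower with a median change of -7.94 points, beside 10 of 14 and -9.48 points for the clustered protocadherins. Of 20 genes for regulators of protocadherin promoters, such as Ctcf, cohesin subunits and Smchd1, 17 were measured. Only Smc3, a cohesin subunit, was called lower, at 3.70% in KI and 4.63% in WT, beside 10.4% of all gene windows called lower. The counting interval of the Smc3 change includes 0. The promoter window of Ctcf stood at 0.126% in KI and 0.267% in WT.

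The variable exons resemble one another, which bears on where a short read maps. A CpG was marked as recurring where its 51 surrounding bases, with C read as T, occurred again in the cluster region. The 84 recurring CpGs averaged 39.3% in KI and 50.5% in WT, a change of -11.2 points, and the 328 others averaged 40.1% in KI and 48.5% in WT, a change of -8.34 points. No listed CpG of the member windows had at least 20 reads in one library and none in the other. CpGs inside CCGG sites, at which fragment ends are filled in during library preparation, changed by -6.62 points and the 317 outside them by -9.61 points.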

How the data were processed

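RRBS was done by the authors on pooled liver DNA, 1 library per genotype. Reads were mapped by the authors to mm9 with Bismark, and uniquely mapped reads were kept. The deposited files give for each cytosine of a CpG the coverage as a count of reads and the methylation as a percent of those reads. Trimming and duplicate removal are not given in the sources used here. Methylated reads were the coverage times the percent, and 100% of products were whole within the rounding of the percent. A minimum of 5 reads per CpG in each library was set, and every CpG kept had the same weight. Strand and sequence came from the mm9 genome and gene models from GENCODE. Intervals (95%) use the binomial variance of each CpG. CpGs were tested by Fisher's exact test, two-sided, and windows with at least 5 shared CpGs by the Cochran-Mantel-Haenszel test without continuity correction and by Fisher's exact test on summed reads, both with Benjamini-Hochberg adjustment over the whole table. Scripts ran in Python 3.11.15 with numpy 2.4.6, pandas 2.3.3, scipy 1.17.1 and numba 0.67.0 and were tested on simulated data.

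The members and lists were chosen with earlier results of these data known. Named members are the C-type members, the first and the last measured member and the 2 with the most shared CpGs of each cluster, and the 5 largest falls and rises among called members. Others were named after their values were seen, to account for every member and for the first exons. The C-type genes are not listed by name in the annotation, so the last 2 alpha and last 3 gamma first exons stood for them. The range of 30% to 70% in WT was chosen after seeing the data. Fragments, first exons, the bins and the CGCT count are descriptions. Alternatives were other read minimums, thinned reads, summed strands, weighting by reads, other windows and single tests.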

Additional observations from a re-analysis of the deposited data

How the results depend on the processing

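With 1 library per genotype, no replicate could be left out, and no paired analysis was possible because the DNA of the littermate pairs was pooled into 1 library per genotype. The change over all members was negative under every alternative (-9.61 to -5.12 points), as were those of the alpha (-9.95 to -4.50), beta (-11.0 to -7.16) and gamma clusters (-4.99 to -2.37), and no alternative called a member or a member CpG higher. The 10 members called lower became 4 of 8 in windows of 1 kb on each side of the 5' end and 17 of 28 over all distinct 5' ends, an alternative chosen after seeing the data. The 15 CpGs called lower became 8 with strands summed and 29 over all 5' ends. The difference between alpha and beta turned to -1.35 points at 20 reads and to -0.238 points with CpGs weighted by reads, without passing its test, and passed at 4.69 points over all 5' ends. The difference between beta and gamma missed its test at 20 reads (-2.30 points), and that between alpha and gamma missed it without CpGs in recurring sequence (-2.94 points). The 4 upstream CpGs changed by 2.5 points without CpGs in CCGG sites and by 0 points in thinned reads. Pcdhb5, not called, changed by 2.18 points in thinned reads and 1.43 points without recurring sequence. Pcdhb10 lost its call at 10 and 20 reads and in thinned reads, and Pcdha11 and Pcdhb17 lost theirs in the shorter windows. The cause of these shifts was not tested.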

Other observations

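Several measured facts touch the alpha and gamma clusters outside the windows of the gene models. The alpha first exons without those windows changed by -4.50 points and the gamma first exons without theirs by -2.81 points, so the lower methylation in KI was also present in first exons that the rule did not take. Over the 14 measured members the change was more negative where the WT level was higher (Pearson's r -0.40, Spearman's rho -0.56) and less negative where more CpGs were shared (0.49 and 0.60), given as descriptions over windows that share both libraries.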
